A study of Homo sapiens with 8 samples.

Results

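The genes described here are the 39 listed genes of the aminoacyl-tRNA synthetase family and its scaffold proteins, found by symbol among the 57500 genes of a count table. Of these, 10 encode proteins of the multi-tRNA synthetase complex (MSC), 13 encode other cytosolic synthetases and 16 encode mitochondrial synthetases. The list goes by function and uses no measured value, but it was chosen with earlier results of these data known. Every one of the 39 passed the filter on low counts that left 19171 genes to test. RNAseq was measured in HEK293T cells, a transformed line of human embryonic kidney origin, in 4 libraries made after 48 h with DZNep at 100 µM and in 4 made after the vehicle (Control). DZNep (3-deazaneplanocin A) inhibits S-adenosylhomocysteine hydrolase and so lowers the capacity of a cell to methylate proteins, DNA and RNA. No genotype or further agent separates the groups, and both come from 1 cell line. The data are of bulk RNA, in which fewer cells and less RNA per cell cannot be told apart.

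Aminoacyl-tRNA synthetases join each amino acid to its tRNAs, the step that fixes the genetic code before the ribosome acts. In human cells most amino acids have a separate cytosolic and mitochondrial enzyme, both encoded in the nucleus. Several cytosolic enzymes are held together with scaffold proteins in the MSC, while the rest act as free enzymes. Most are needed in every dividing cell, and transcription of many cytosolic ones is known to rise through the factor ATF4 when amino acids run short.

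Library totals ranged from 25043058 to 44902779 counts, and the lowest count of any of the 39 genes in any library was 205. The mitochondrially encoded share of counts stood apart between libraries of the same group. It was 7.76% in Control 1, 3.02% in Control 2, 3.16% in Control 3 and 13.7% in Control 4, and 7.04%, 4.25%, 4.44% and 10.1% in DZNep 1 to 4. All 7 HEK293T markers looked up were present, from PAX2 at 207 to 385 normalized counts to VIM at 18481 to 35819. Of these, KRT8 (log2 fold change 2.44) and KRT18 (0.83) were higher with DZNep, PAX2 was lower (-0.54), and VIM, NEFL, NEFM and CDH2 were not called. Markers of other cell types (PTPRC, CD3E, LYZ, ALB) were at 0 to 77.7 normalized counts, apart from LYZ at 450 in DZNep 2.

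RefSeq promoter windows (GRCh38.p14, 250 bases before to 50 after the start of each gene) were matched for 33 of the 39 genes; AARS2, LARS1, TARS3, VARS1, VARS2 and YARS1 were not matched. The 8-letter word TGATGCAA, searched on both strands, joins recognition elements of C/EBP and ATF factors and is the kind of element through which ATF4 is known to act. It was found in 6 of the 33 windows, of AARS1, CARS1, IARS1, MARS1, NARS1 and TARS1, and in 0.923% of all 27305 windows. It was in 2 of 9 MSC windows, 4 of 10 windows of other cytosolic enzymes and 0 of 14 mitochondrial windows. The 6 sequences are shown because the gene list did not use this feature and the 6 synthetase windows that hold it all belong to cytosolic enzymes. Capitals mark the word or its reverse complement, and each stretch is read 5′ to 3′ on the strand of the gene.
AARS1 (chr16:70289670-70289709, minus strand): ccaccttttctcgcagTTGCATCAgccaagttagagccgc
CARS1 (chr11:3057407-3057436, minus strand): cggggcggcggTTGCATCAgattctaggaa
IARS1 (chr9:92293698-92293726, minus strand): ccgcattttcagcgcgTTGCATCAcctcc
MARS1 (chr12:57488053-57488082, plus strand): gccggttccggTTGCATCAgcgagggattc
NARS1 (chr18:57621804-57621833, minus strand): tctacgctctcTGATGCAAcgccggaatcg
TARS1 (chr5:33440956-33440985, plus strand): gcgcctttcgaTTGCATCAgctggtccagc
A match describes these letters only and does not show that a factor is bound. In 5 of the 6 genes the word lay within 14 bases of the start, and in AARS1 it lay 187 bases before it. Of the other words searched, the E-box CACGTG was in 4 of 33 windows (7.43% of all windows), the ETS word CCGGAAGT in 7 (4.44%) and the NRF1 word GCATGCGC in 2 (3.27%).

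To ask how DZNep changed transcripts of tRNA charging, the groups were compared with edgeR's quasi-likelihood test over the 19171 genes, and a gene was called at a Benjamini-Hochberg adjusted p under 0.05. The family split, with 9 genes lower, 2 higher and 28 not called. The 9 lower genes were 23.1% of the family, against 21.8% of all genes tested, and the 2 higher genes were 5.13%, against 19.1%. Those lower were AIMP2 and MARS1 of the MSC, FARSB, AARS1, WARS1 and TARS3 of the other cytosolic enzymes, and CARS2, HARS2 and RARS2 of the mitochondrial ones, while VARS2 and TARS2 were higher. The median log2 fold change over the 39 genes was -0.19, against -0.03 over all genes tested. With libraries scaled by their totals alone the split was 5 lower (12.8%, against 19.0% of all genes) and 3 higher (7.69%, against 19.9%). Adding replicate number to the fit as a block gave 12 lower and 4 higher, where 30.2% and 28.8% of all genes were called.

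Most of these changes were small. Only FARSB, lower, and VARS2, higher, also passed the study's further threshold of an absolute log2 fold change over 1, which 13.5% of all genes passed downwards and 10.6% upwards. In 8 genes all 4 DZNep libraries lay below all 4 Control libraries, and in 2 genes they lay above, against 19.4% and 19.5% of all genes tested. The 28 genes not called had log2 fold changes from -0.47 to 0.53 and adjusted p from 0.0633 to 0.99. For 25 of them the 95% interval of the log2 fold change lay within 1 of 0 on either side, and the exceptions were IARS1, LARS1 and IARS2. The log2 fold change was negative in 29 of the 39 genes, 4 of which (EEF1E1, EARS2, MARS2 and SARS2) turned positive with libraries scaled by their totals alone.

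**Figure D1:**
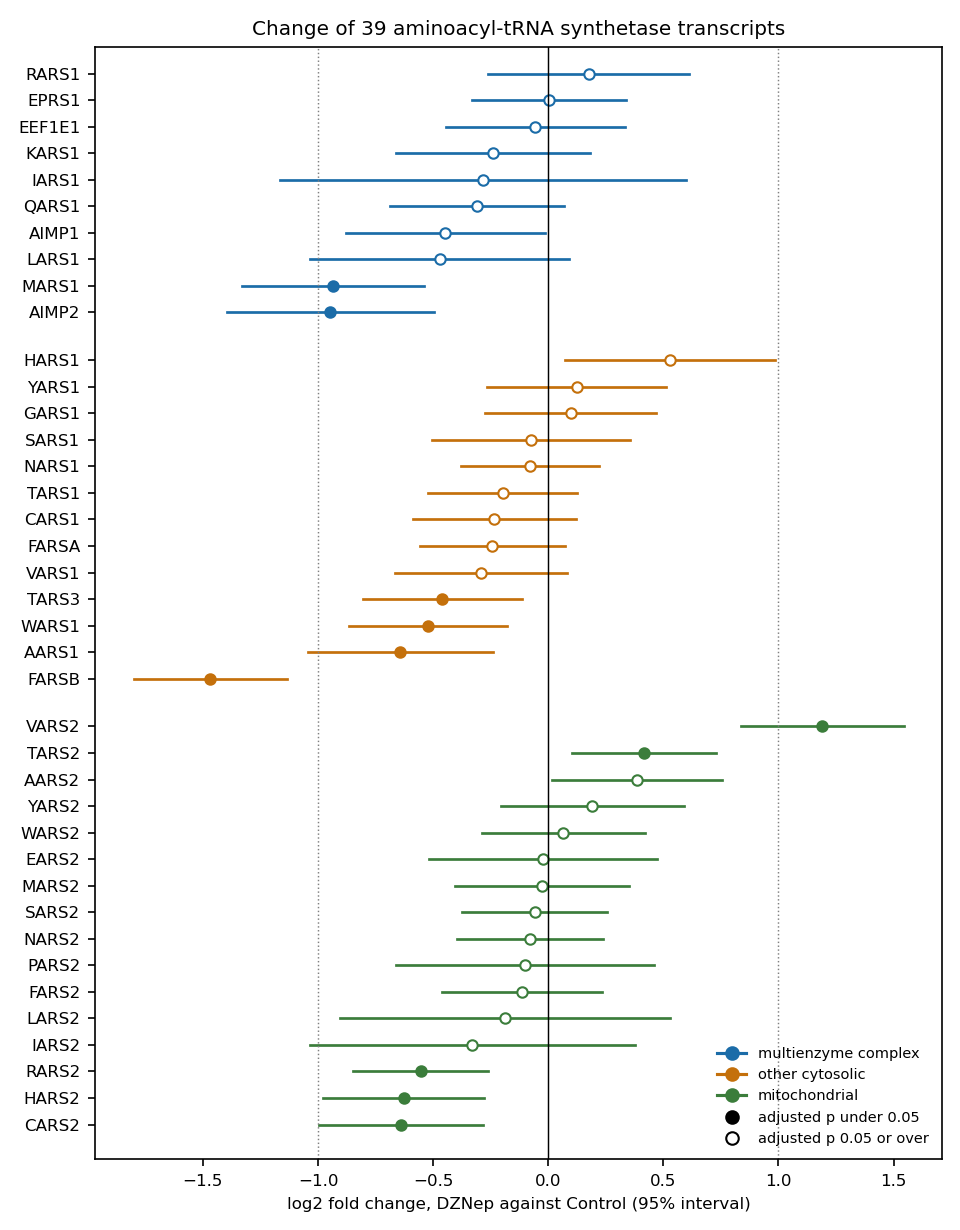
Log2 fold change of DZNep against Control for the 39 genes, by class, with points for the estimate and lines for the 95% interval. Filled points are the 11 genes called at an adjusted p under 0.05; FARSB at -1.47 and VARS2 at 1.19 are the ones past the dotted lines at 1 in either direction.

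In the MSC, 2 of the 10 genes were lower (20.0%, against 21.8% of all genes tested) and 0 were higher (against 19.1%). Their median log2 fold change was -0.30. AIMP2 is the scaffold protein that several enzymes of the complex bind. Its normalized counts were 3157, 2021, 2883 and 1925 in Control 1 to 4 and 1316, 1268, 1067 and 1630 in DZNep 1 to 4. Every DZNep library was below every Control library, although the gap within replicate 4 was narrow. AIMP2 fell by 0.95 ± 0.20 on the log2 scale (SE, adjusted p = 0.00419). Of its exonic bases, 29.1% overlap EIF2AK1, and the strand setting of the counting is not given in the sources used here.

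MARS1 charges methionine, including that of the initiator tRNA. Its normalized counts were 14366, 18111, 16528 and 11602 in the Control libraries and 8746, 8081, 8707 and 6761 in the DZNep libraries. The groups did not overlap, and replicate 4 was the lowest library of both. MARS1 fell by 0.93 ± 0.18 (SE, adjusted p = 0.00213). Its exons overlap those of DDIT3 and ARHGAP9 over 12.4% of their bases, and DDIT3, the stress-induced factor CHOP, itself fell by 2.61. DDIT3 had at most 1583 normalized counts in any library, while the mean of MARS1 was 15152 in Control and 8074 with DZNep. The part of the shared bases in the change of MARS1 was not tested.

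The other MSC genes were not called. AIMP1, the scaffold protein that is cut to the cytokine EMAPII, was at 2786, 2190, 2259 and 3510 normalized counts in Control and 2078, 1784, 1682 and 2495 with DZNep. The groups overlapped, but DZNep was lower within every replicate number, by 0.30 to 0.49 on the log2 scale. Its log2 fold change was -0.45 ± 0.19 (SE, adjusted p = 0.0923) and -0.44 with the replicate block (adjusted p = 0.0031). Without DZNep 4 it was -0.56 and was called (adjusted p = 0.0492). LARS1, which charges leucine and acts as a leucine sensor for mTORC1, was at 13167, 23094, 21992 and 11305 in Control and 13573, 13923, 13899 and 9674 with DZNep. Control 2 and 3 were high and the other Control libraries lay near the DZNep level. The log2 fold change of LARS1 was -0.47 ± 0.25 (SE, adjusted p = 0.165), -0.42 with the block (adjusted p = 0.0163) and -0.64 without Control 4 (adjusted p = 0.0486). At the other end of the complex stood RARS1, the arginine enzyme, at 5115, 8191, 6830 and 4445 in Control and 6966, 7817, 6649 and 6864 with DZNep. Its DZNep libraries lay inside the Control range (log2 fold change 0.18, adjusted p = 0.507).

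IARS1, the isoleucine enzyme of the complex, varied most. It was at 16309, 38101, 32947 and 10092 normalized counts in Control and 22193, 24090, 23409 and 11737 with DZNep. Control 2 and 3 were the highest libraries and replicate 4 the lowest in both groups. The log2 fold change of -0.28 ± 0.40 (SE) had a 95% interval from -1.17 to 0.60, so a fall by more than the threshold of 1 was within it. EPRS1, KARS1, QARS1 and the scaffold EEF1E1 had log2 fold changes from -0.31 to 0.00.

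Among the 13 other cytosolic enzymes, 4 were lower (30.8%, against 21.8% of all genes tested) and 0 were higher (against 19.1%). Their median log2 fold change was -0.23. FARSB encodes the beta subunit of phenylalanyl-tRNA synthetase. Its normalized counts were 7435, 6374, 6916 and 6068 in Control and 2647, 2306, 2085 and 2833 with DZNep. The highest DZNep library was far below the lowest Control library. FARSB fell by 1.47 ± 0.15 (SE, 95% interval -1.80 to -1.13, adjusted p = 6.71e-05), the largest fall of the 39 genes. FARSA, the alpha subunit of the same enzyme, was at 8231, 7698, 7765 and 7835 in Control and 6624, 6882, 5706 and 7950 with DZNep. Its groups overlapped through DZNep 4, and its log2 fold change of -0.24 was not called (adjusted p = 0.199).

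AARS1, the alanine enzyme, was at 20217, 25121, 25921 and 17198 normalized counts in Control and 15661, 12108, 15680 and 14264 with DZNep. All DZNep libraries were below all Control libraries, and AARS1 fell by 0.64 ± 0.18 (SE, adjusted p = 0.0167). The call was lost without DZNep 2 (adjusted p = 0.0552) and with library sizes alone (adjusted p = 0.0538). WARS1, the tryptophan enzyme and a known interferon-induced gene, was at 8021, 8988, 9739 and 6984 in Control and 6640, 5424, 5504 and 6371 with DZNep. Here too the groups did not overlap, with a fall of 0.52 ± 0.16 (SE, adjusted p = 0.0213). Leaving out Control 3, DZNep 2 or DZNep 3 put WARS1 above the threshold, with adjusted p of 0.0629, 0.0666 and 0.0698. So did library sizes alone (adjusted p = 0.0706) and testing every gene of at least 1 count (adjusted p = 0.0805). TARS3, a threonine enzyme related to TARS1, was at 788, 1100, 1015 and 836 in Control and 658, 790, 687 and 636 with DZNep. DZNep 2 lay just above Control 1, and TARS3 fell by 0.46 ± 0.15 (SE, adjusted p = 0.0365). It was not called by DESeq2 (adjusted p = 0.0516), with library sizes alone (adjusted p = 0.151) or with every gene of at least 1 count tested (adjusted p = 0.131). Leaving out any 1 of 5 libraries, Control 2 and 3 and DZNep 1, 3 and 4, also lost the call (highest adjusted p 0.125).

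HARS1, the histidine enzyme, was the cytosolic gene with the highest log2 fold change. It was at 3475, 3303, 2859 and 4832 normalized counts in Control and 5460, 4981, 4121 and 6723 with DZNep. The groups overlapped through Control 4, while within each replicate number DZNep was higher by 0.48 to 0.65 on the log2 scale. Its log2 fold change of 0.53 ± 0.21 (SE) was not called (adjusted p = 0.0633). It was called with the replicate block (adjusted p = 0.000674), by DESeq2 (adjusted p = 0.0333), with library sizes alone (adjusted p = 0.0131), and without Control 4 or DZNep 3 (adjusted p = 0.0146 and 0.0439). VARS1, the valine enzyme, was at 6455, 9486, 7102 and 6592 in Control and 6026, 7117, 5390 and 6124 with DZNep. Its log2 fold change of -0.29 (adjusted p = 0.191) was called with the block (-0.28, adjusted p = 0.0467). The remaining enzymes CARS1, GARS1, NARS1, SARS1, TARS1 and YARS1 had log2 fold changes from -0.23 to 0.12.

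Of the 16 mitochondrial enzymes, 3 were lower (18.8%, against 21.8% of all genes tested) and 2 were higher (12.5%, against 19.1%). Their median log2 fold change was -0.07. VARS2, the mitochondrial valine enzyme, was at 1740, 2460, 2425 and 1887 normalized counts in Control and 4994, 4906, 5405 and 4488 with DZNep. Its lowest DZNep library stood far above its highest Control library, a rise of 1.19 ± 0.16 on the log2 scale (SE, adjusted p = 0.000284). TARS2, the mitochondrial threonine enzyme, was at 2729, 3732, 3233 and 3269 in Control and 4440, 4606, 3992 and 4579 with DZNep. The groups did not overlap and TARS2 rose by 0.41 ± 0.14 (SE, adjusted p = 0.0372). However, 6 of the 8 fits that leave out 1 library lost the call (all but those without Control 2 or DZNep 3, highest adjusted p 0.115 without Control 1). The call was also lost with every gene of at least 1 count tested (adjusted p = 0.123). AARS2, the mitochondrial alanine enzyme, was at 1542, 2290, 2085 and 1602 in Control and 2404, 2893, 2430 and 2287 with DZNep. Only DZNep 4 lay within the Control range, just under Control 2 (log2 fold change 0.39, adjusted p = 0.0898, with the block 0.40 and 0.00815, without Control 2 0.49 and 0.0403).

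The 3 lower mitochondrial genes showed changes of like size. CARS2, the cysteine enzyme, was at 1411, 1070, 1078 and 1369 normalized counts in Control and 828, 705, 739 and 954 with DZNep, and fell by 0.64 ± 0.16 (SE, adjusted p = 0.00966). HARS2, the histidine enzyme, was at 1201, 1238, 1239 and 866 in Control and 813, 779, 743 and 659 with DZNep, and fell by 0.63 ± 0.16 (SE, adjusted p = 0.00939). RARS2, the arginine enzyme, was at 1380, 1595, 1582 and 1326 in Control and 1090, 938, 984 and 1074 with DZNep, and fell by 0.55 ± 0.13 (SE, adjusted p = 0.00741). In each of these 3 genes every DZNep library was below every Control library. The 10 mitochondrial enzymes not given above with values (EARS2, FARS2, IARS2, LARS2, MARS2, NARS2, PARS2, SARS2, WARS2 and YARS2) had log2 fold changes from -0.33 to 0.19. SARS2 shares 48.2% of its exonic bases with another annotated gene and is uncertain.

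**Figure D2:**
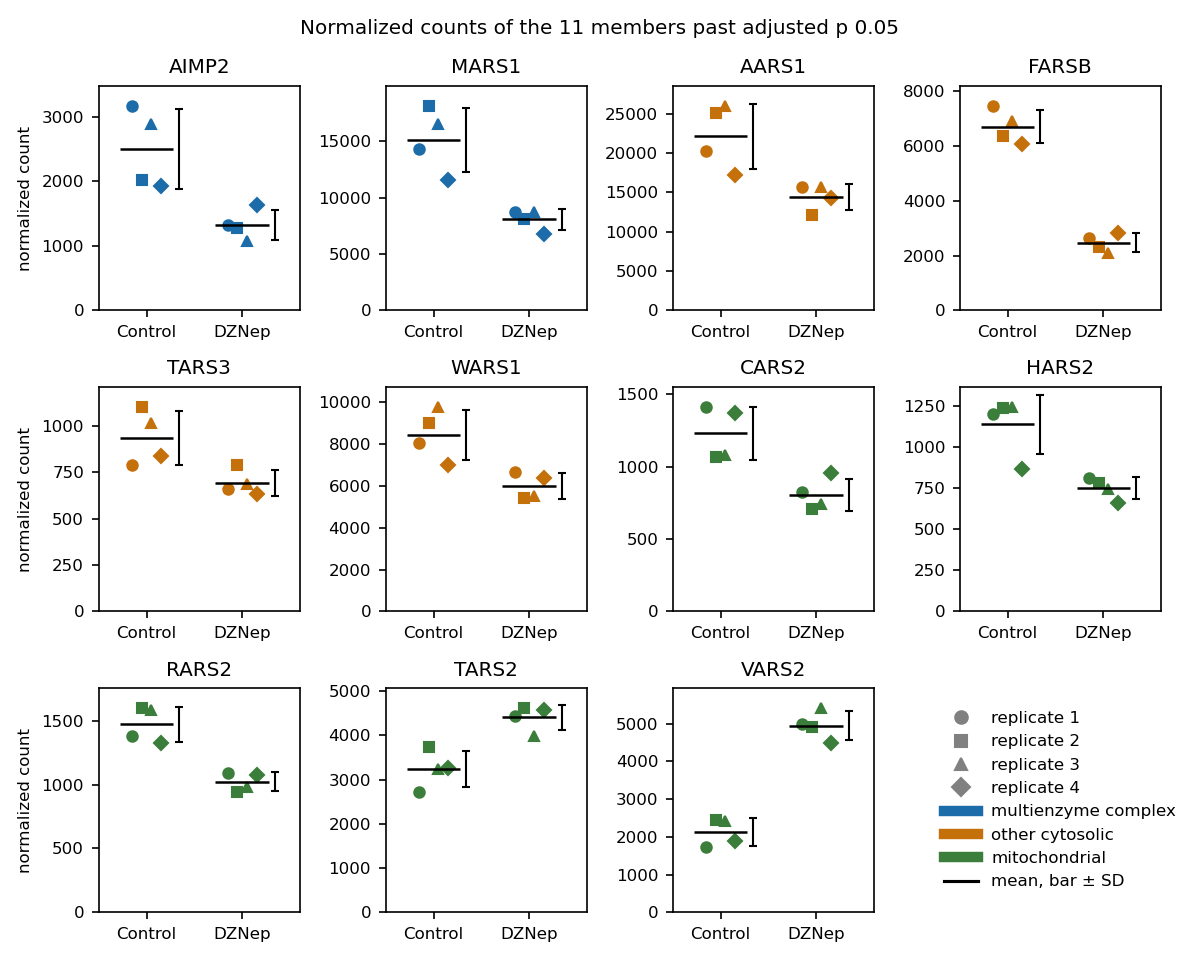
Normalized counts in each library for the 11 genes called at an adjusted p under 0.05, with 1 panel per gene, a symbol per replicate number, a line for the group mean and a bar for the SD (n = 4). DZNep and Control libraries do not overlap except in TARS3, where DZNep 2 at 790 lies above Control 1 at 788.

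HARS1 and HARS2 lie head to head on chromosome 5. HARS2 was lower with DZNep, while the log2 fold change of HARS1 was above 0 (0.53) but was not called (adjusted p = 0.0633). In RefSeq their starts leave 84 bases between them (chr5:140691371-140691454), shown because both genes read outwards from them and each end carries the ETS word CCGGAAGT, marked in capitals. The sequence is that of the plus strand, so HARS1 runs to the left and HARS2 to the right.
HARS1 to HARS2: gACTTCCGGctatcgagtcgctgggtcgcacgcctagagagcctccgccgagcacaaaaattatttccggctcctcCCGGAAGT
In the GENCODE models used for the other coordinates the transcripts reach past these starts, and 8.46% of HARS1 and 6.99% of HARS2 exonic bases are shared with neighbours, the other of the pair among them. The ratio of HARS1 to HARS2 normalized counts was 2.89, 2.67, 2.31 and 5.58 in Control and 6.72, 6.39, 5.55 and 10.2 with DZNep. Control 4 reached into the DZNep range, and within every replicate number the ratio rose, by 1.83- to 2.40-fold. Over the 8 libraries the exact two-sided permutation p was 0.0571, or 0.114 adjusted over the 18 ratios described next.

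Ratios within a library do not depend on how libraries are scaled, so the cytosolic enzyme was divided by the mitochondrial one for the same amino acid (17 ratios), and FARSA by FARSB. In 6 ratios all DZNep libraries were below all Control libraries (VARS1 to VARS2, FARSB to FARS2, AARS1 to AARS2, MARS1 to MARS2, TARS1 to TARS2 and WARS1 to WARS2). In 2 they were above (FARSA to FARSB and RARS1 to RARS2), and in 10 they overlapped. These 8 have an exact p of 0.0286, the smallest that 4 against 4 libraries allow, and adjusted over the 18 ratios it was 0.0644, so 0 of 18 passed 0.05.

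The valine ratio shifted most. VARS1 to VARS2 was 3.71, 3.86, 2.93 and 3.49 in the Control libraries and 1.21, 1.45, 0.997 and 1.36 in the DZNep libraries, and DZNep 3 had about as many counts of the mitochondrial as of the cytosolic gene. The alanine ratio, AARS1 to AARS2, was 13.1, 11.0, 12.4 and 10.7 in Control and 6.51, 4.18, 6.45 and 6.24 with DZNep. For alanine, threonine, tryptophan and valine the log2 fold change was below 0 for the cytosolic and above 0 for the mitochondrial enzyme, although TARS1, VARS1, AARS2 and WARS2 were not called. The ratio of FARSA to FARSB, subunits that combine in equal number in the enzyme, was 1.11, 1.21, 1.12 and 1.29 in Control and 2.50, 2.98, 2.74 and 2.81 with DZNep. Its log2 difference of 1.22 stayed between 1.18 and 1.27 when each library was left out in turn. The isoleucine ratio, IARS1 to IARS2, by contrast stayed between 2.29 and 3.29 in all 8 libraries, although both genes varied widely among them.

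**Figure D3:**
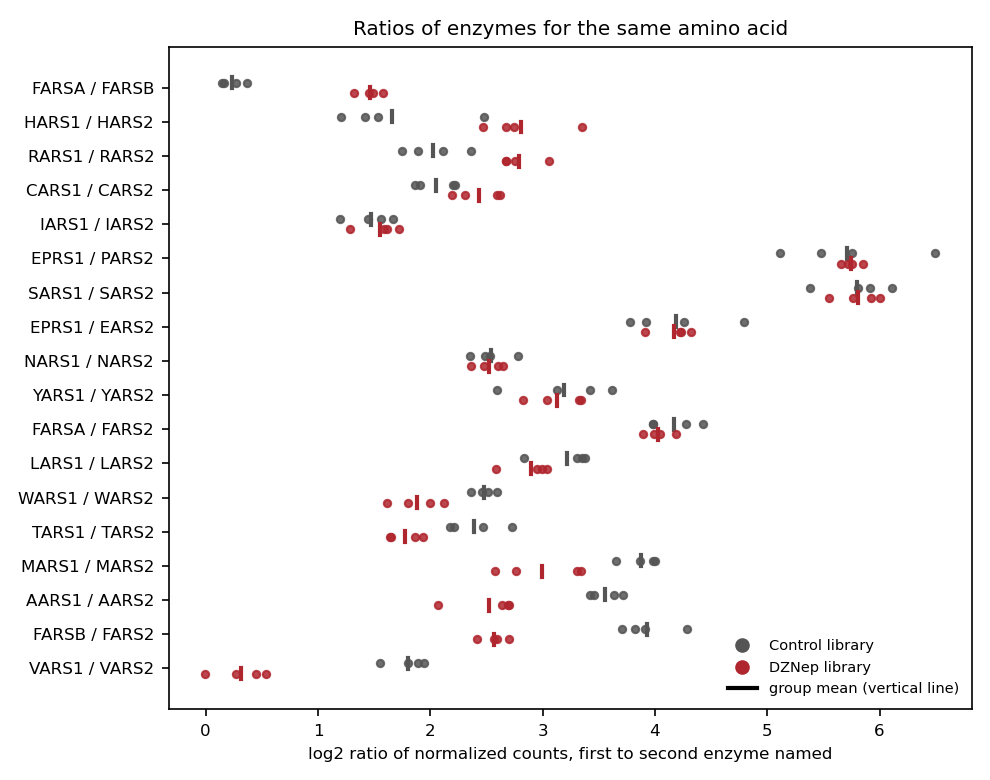
Log2 ratio of normalized counts of 2 enzymes for the same amino acid in each library, ordered by the difference between the groups, with a vertical line for each group mean. The lowest line, VARS1 to VARS2, falls by 1.48 with DZNep, and the highest, FARSA to FARSB, rises by 1.22.

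Replicates 2 and 3 had the lower mitochondrially encoded share in both groups. In Control, replicates 2 and 3 were both above 1 and 4 in 25 of the 39 genes (64.1%, against 35.2% of all genes tested), 13 of them mitochondrial enzymes, and both below in 8 (35.6% of all genes). With DZNep the order was not the same, with replicates 2 and 3 both above 1 and 4 in 5 genes (27.5% of all genes) and both below in 16 (27.8% of all genes). The highest Control library was at least 2-fold above the lowest in 6 of the 39 genes, against 40.2% of all genes tested. Across the 39 genes the log2 ratio of these Control libraries followed transcript length with a Spearman's rho of 0.466, and across 18680 genes with a rho of 0.453. These genes share the same 4 libraries, and the part of RNA quality or of the mitochondrially encoded share was not tested.

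The DZNep difference within each replicate number uses these same Control libraries, so its pattern is not a result separate from the order above. In 12 of the 39 genes (30.8%, against 3.53% of all genes tested) DZNep was above Control in replicate numbers 1 and 4 and below it in numbers 2 and 3, and the opposite pattern was found in 0 (3.63% of all genes). The 12 were IARS1, RARS1, NARS1, SARS1 and YARS1 among the cytosolic and EARS2, FARS2, IARS2, LARS2, NARS2, PARS2 and SARS2 among the mitochondrial enzymes. IARS1 gave within-number log2 ratios of 0.44, -0.66, -0.49 and 0.22. All of the 12 but YARS1 are among the 25 genes with Control 2 and 3 above Control 1 and 4. None of the 12 was called, which a change of sign between replicate numbers makes likely beforehand. DZNep was below Control in all 4 numbers in 14 genes (35.9%, against 31.6%), which hold the 9 lower genes and AIMP1, KARS1, CARS1, TARS1 and VARS1. It was above in all 4 numbers in HARS1, AARS2, TARS2, VARS2 and YARS2 (12.8%, against 32.4%).

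**Figure D4:**
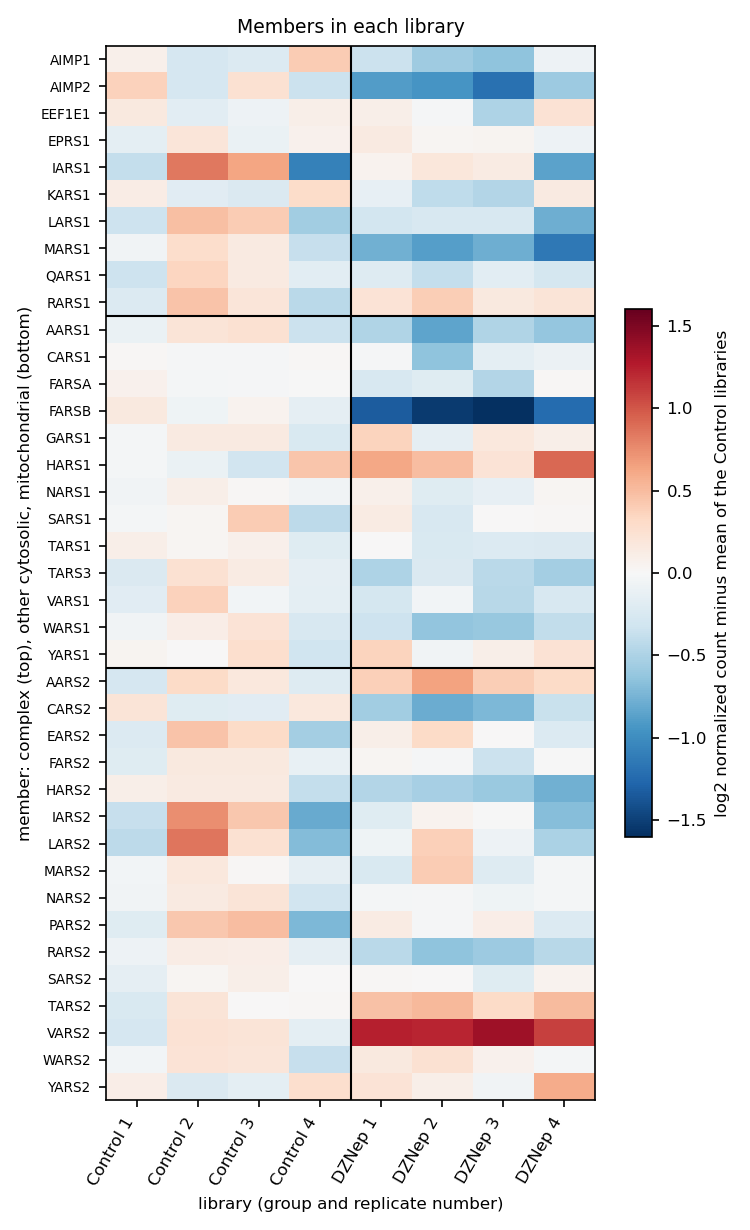
Log2 normalized count of the 39 genes in each library minus the mean of the Control libraries, with rows grouped by class and columns by group and replicate number. Control 2 and 3 stand above Control 1 and 4 in 25 genes, FARSB is low and VARS2 high in all 4 DZNep libraries.

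Levels were compared between genes as normalized counts per kb of the Ensembl canonical transcript. In Control the highest was SARS1, the serine enzyme, at 10370 ± 2410 (SD, n = 4) per kb, followed by YARS1 at 7766 ± 1290 and GARS1 at 6759 ± 835. The lowest were PARS2 at 200.3 ± 72.6 and SARS2 at 181.5 ± 12.5. The median level per kb was 3277 for the MSC genes, 3550 for the other cytosolic enzymes and 502.5 for the mitochondrial enzymes. IARS2 at 2383 per kb was the highest mitochondrial enzyme and TARS3 at 268.5 the lowest cytosolic one. Of the 38 pairs of neighbours in this order, 36 overlapped in their Control libraries, and the gaps without overlap were between VARS1 and TARS2 and between AIMP1 and NARS2. FARSB was at 991 and FARSA at 4352 per kb in Control, on transcripts of 6761 and 1811 bases. Without division by length, the Control ratio of FARSA to FARSB was 1.11 to 1.29.

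Structure divides synthetases into class I and class II catalytic folds. Of 18 class I genes 4 were lower and 1 was higher (median log2 fold change -0.26). Of 17 class II genes 4 were lower and 1 was higher (median -0.10). Among all genes tested 21.8% were lower and 19.1% higher. EPRS1, which has both folds, and the scaffolds AIMP1, AIMP2 and EEF1E1, which have neither, were not counted here.

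The genes that act around charging were described by a list of 20, holding tRNA-editing and selenocysteine enzymes, tRNA export and elongation factors. Of these 9 were lower (45.0%, against 21.8% of all genes tested) and 2 were higher (10.0%, against 19.1%), with a median log2 fold change of -0.52. With the replicate block 13 were lower (65.0%, against 30.2% of all genes tested) and 3 were higher (15.0%, against 28.8%). The lowest was DTD2, which clears D-amino acids from tRNA, with a log2 fold change of -2.01 (adjusted p = 6.83e-06), and 72.2% of its exonic bases overlap other genes. EEFSEC, the elongation factor for selenocysteine, followed at -1.74 (adjusted p = 5.58e-05). The highest was PSTK, the kinase that acts on seryl-tRNA on the way to selenocysteine, at 1.71 (adjusted p = 9.11e-05). PSTK was at 179 to 298 normalized counts in Control and 688 to 913 with DZNep. GFM1, a mitochondrial elongation factor, was next at 0.65 and was not called (adjusted p = 0.0931), but was called with the block (0.71, adjusted p = 0.000362).

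A list of 23 genes of the amino acid response, the ATF4 programme that includes cytosolic synthetases, had 9 lower (39.1%, against 21.8% of all genes tested) and 1 higher (4.35%, against 19.1%), with a median log2 fold change of -0.49. With the replicate block 13 were lower (56.5%, against 30.2% of all genes tested) and 2 were higher (8.7%, against 28.8%). DDIT3 fell by 2.61 (adjusted p = 0.00013), and 31.6% of its exonic bases overlap MARS1, which also fell, and MBD6. TRIB3, a pseudokinase induced by ATF4, fell by 1.76 (adjusted p = 0.00113). DDIT4, an inhibitor of mTORC1 signalling, rose by 1.06 (adjusted p = 0.00134), and SESN2, next in order, had 0.31 and was not called (adjusted p = 0.288), but was called with the block (0.32, adjusted p = 0.03). ATF4 mRNA, named after its values were seen, had a log2 fold change of -0.03 ± 0.23 (SE, adjusted p = 0.92). Of the 6 synthetases with the word TGATGCAA near the start, AARS1 and MARS1 were lower, and CARS1, IARS1, NARS1 and TARS1 had log2 fold changes from -0.28 to -0.08 that were not called.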

How the data were processed

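RNAseq was measured in 8 HEK293T libraries, grouped by the treatment in the labels (4 Control, 4 DZNep), which the study calls biological replicates. Reads were paired, of 150 bp. After trimming (Trimmomatic 0.36), the authors aligned reads to GRCh38 (STAR 2.5.2b), and featureCounts (Subread 1.5.2) gave the number of uniquely placed reads on the exons of each gene. The deposited counts cover 57500 genes without normalization. The second deposited table, a signal in normalized counts for 19118 genes with over 80 counts in all, was checked to be each count divided by 1 size factor per library. Annotation release, library type and strandedness are not given in the sources used here.

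The main test was edgeR 4.0.16 (R 4.3.3), quasi-likelihood with TMM normalization, on the 19171 genes passing filterByExpr, with Benjamini-Hochberg adjustment over all of them. The script was tested on simulated counts. Symbols and coordinates came from GENCODE release 44 (56410 identifiers matched). Alternatives were DESeq2 1.42.0, median-ratio size factors, library sizes alone, 2 other count filters, a replicate block and leaving out each library. Deviations from the group means correlated between same-numbered libraries (0.14, 0.49, 0.43 and 0.67), and as highly between some others (0.53 for Control 1 and DZNep 4). Since every same-numbered pair was over 0.1, results with the block are given where they change a call, while the main test and the permutations used no pairing. Normalized counts per library use the authors' size factors, and ratios were tested by exact permutation. Library totals were 25043058 to 44902779 counts; 3 counts, the floor for a count of 0, are 1.2e-05% of the shallowest, and this covers counting error only.

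The genes and lists were chosen with earlier results of these data known. Values per library are given for genes called, for the lowest and highest log2 fold change of each class and for genes whose call changed with the block; lists are given by counts and their 2 lowest and 2 highest genes. FARSA, IARS1 and the ratios were added after values were seen.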

Additional observations from a re-analysis of the deposited data

Results flagged for a closer look

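In 5 of the 78 groups of 4 libraries (39 genes in each treatment), 1 library stood apart from the other 3 by more than the critical value of Dixon's ratio, which chance gives in about 1 of 20 groups. IARS1 was at 11700 normalized counts in DZNep 4 and at 22200 to 24100 in the other DZNep libraries. LARS1 was at 9670 in DZNep 4 and at 13600 to 13900 in the others. TARS1 was at 17000 in DZNep 1 and at 14400 to 14500 in the others. FARS2 was at 346 in DZNep 3 and at 433 to 447 in the others. HARS2 was at 866 in Control 4 and at 1200 to 1240 in the others, and its fall with DZNep stayed called without that library. Control 4 and DZNep 4 are the libraries with the highest mitochondrially encoded share of their groups (13.7% and 10.1%), whose part in these values was not tested.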

How the results depend on the processing

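No gene had under 205 counts in a library, and counting error weighs most on SARS2, PARS2 and FARS2. AIMP2, MARS1, FARSB, CARS2, RARS2 and VARS2 stayed called in the same direction in all 14 alternatives, and HARS2 in 13. With library sizes alone the genes lower went from 9 to 5 and those of the other cytosolic class from 4 to 1. With every gene of at least 1 count tested, the other cytosolic class had 2 lower and the family 1 higher. With the replicate block 4 genes were higher and 4 of the MSC lower (AIMP1, LARS1, VARS1, HARS1 and AARS2 were gained), and it changed no other call among the 39. Leaving out each library gave 7 to 10 genes lower, 1 to 3 higher, 2 to 3 of the MSC lower, 2 to 4 of the other cytosolic class lower and 3 of the mitochondrial class lower throughout. The class medians were then -0.43 to -0.25, -0.26 to -0.17 and -0.17 to 0.03. Some genes near 0, none of them called, changed sign. With DESeq2 EARS2 was at 0.00042 and MARS2 at 0.0029, with library sizes alone EEF1E1 was at 0.017, EARS2 at 0.035, MARS2 at 0.047 and SARS2 at 0.013, with at least 10 counts in every library EARS2 was at 0.011 and MARS2 at 0.0051, and with the replicate block EARS2 was at 0.015. Leaving out libraries, log2 fold changes ran from -0.144 to 0.0814 for EEF1E1, -0.0574 to 0.0671 for EPRS1, -0.548 to 0.00976 for IARS1, -0.203 to 0.0743 for SARS1, -0.184 to 0.137 for EARS2, -0.39 to 0.165 for LARS2, -0.184 to 0.0659 for MARS2, -0.3 to 0.0626 for PARS2 and -0.0512 to 0.136 for WARS2. The cause of these shifts was not tested.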
